A study of Mus musculus with 6 samples.

Results

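The TGF-beta and BMP pathway was followed through 37 of its genes in left ventricles of angiotensin II-treated mice, and all 37 were found by symbol among the 13384 genes of the count table. The list was chosen by name, but with earlier results of these data known. It holds 5 ligands, 4 latent binding proteins, 8 receptors, 5 receptor-regulated or common SMADs, 10 inhibitors or brakes, and 5 targets or secreted products. Polyadenylated RNA was sequenced from left ventricles of adult mice with a global deletion of cytoglobin, labelled Cygb(-/-) (n = 3), and of wild-type littermates (n = 3). An osmotic pump had delivered the pressor hormone angiotensin II (1.5 mg/kg/day) to every mouse of both groups over 2 weeks, so the comparison is between genotypes under angiotensin II and not of angiotensin II itself. The deletion was global and not limited to one cell type, and each library came from 1 mouse. The genotype labels could not be checked by the targeted gene, as Cygb was not analysed here.

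TGF-beta ligands are secreted in a latent form that latent TGF-beta binding proteins tether to the extracellular matrix. Once released, they assemble type I and type II receptor kinases that phosphorylate Smad2 and Smad3, whereas BMP ligands act through Smad1 and Smad5, and both branches share Smad4. Many of the pathway's inhibitors, among them Smad6, Smad7, Pmepa1, Skil and Bambi, are known to be induced by the pathway itself and so act as negative feedback. In the heart the TGF-beta branch is known for driving fibroblast activation and matrix deposition.

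The libraries held 23190864 to 30354857 counts over the table's genes, and no member had fewer than 48 counts in any library. Markers of ventricular cardiomyocytes were all present, 10 of 10, with the least abundant at 1207 CPM (read counts scaled to library size). Some features of the whole table touch the values below. Wild-type replicate 1 stood apart for atrial muscle genes, with values given beside the cell type markers. Wild-type replicate 2 stood apart for matrix genes: Postn, a gene of activated fibroblasts, reached 542 CPM there, while wild-type replicates 1 and 3 had 97.8 and 123 CPM. Fold changes over all genes also followed GC content, with a median log2 fold change (knockout minus wild type) of 0.20 in the lowest of 5 equal GC bins and -0.24 in the highest.

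SMAD complexes are known to bind the short element CAGAC, so the sequence just before the start site is shown for 4 members described below, none of which passed the test after adjustment: Ltbp3, Smad6 and Tgfb2, with log2 fold changes under 0, and Ltbp1, with one above 0. Sequences are the 250 bases before the start in RefSeq's table (GRCm38.p6), printed 5′ to 3′ on the gene's strand. Capitals mark CAGAC or its reverse complement GTCTG. Ltbp3 (chr19:5740650-5740899, plus strand) has 1 match, Ltbp1 (chr17:75005279-75005528, plus strand, the more distal of its start sites in the table) has 1, Tgfb2 (chr1:186705990-186706239, minus strand) has 2, and Smad6 (chr9:64022060-64022309, minus strand) has 0.
Ltbp3: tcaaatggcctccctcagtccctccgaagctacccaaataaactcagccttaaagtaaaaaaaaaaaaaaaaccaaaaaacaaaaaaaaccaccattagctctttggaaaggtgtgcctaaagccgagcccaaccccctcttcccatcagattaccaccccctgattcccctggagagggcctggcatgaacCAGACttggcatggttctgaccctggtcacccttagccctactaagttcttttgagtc
Ltbp1: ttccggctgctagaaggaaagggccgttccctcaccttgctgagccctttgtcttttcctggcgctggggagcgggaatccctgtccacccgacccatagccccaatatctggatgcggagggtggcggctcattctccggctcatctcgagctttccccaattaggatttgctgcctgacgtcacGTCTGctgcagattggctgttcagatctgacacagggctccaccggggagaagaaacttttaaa
Tgfb2: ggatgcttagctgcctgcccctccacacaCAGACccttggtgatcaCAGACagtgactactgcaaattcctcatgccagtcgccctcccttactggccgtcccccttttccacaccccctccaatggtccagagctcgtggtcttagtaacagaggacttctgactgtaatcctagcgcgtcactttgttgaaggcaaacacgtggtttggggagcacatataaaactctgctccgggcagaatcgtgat
Smad6: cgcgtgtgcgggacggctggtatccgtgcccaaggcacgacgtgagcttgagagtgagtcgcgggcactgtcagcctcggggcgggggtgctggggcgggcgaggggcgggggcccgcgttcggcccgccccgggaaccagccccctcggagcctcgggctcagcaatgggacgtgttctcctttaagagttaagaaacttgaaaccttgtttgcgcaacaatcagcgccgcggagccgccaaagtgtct
In Tgfb2 both matches lie in the distal end of the window, in Ltbp3 and Ltbp1 the match is in the proximal part. The table held 27 of the 37 members with 37 promoters between them, and 10307 of the genes tested with 13197 promoters. CAGAC was present on either strand in 48.65% of member promoters and in 40.42% of all promoters of the genes tested. The palindrome GTCTAGAC was found in 0% and 0.1819%, and GGCGCC, a GC-rich SMAD element, in 27.03% and 16.41%. None of these 3 motifs contains another. A match describes letters only, and binding was not measured.

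By edgeR's quasi-likelihood test adjusted over all genes, 0 members passed 0.05 as higher in the knockout and 0 as lower, against a background of 0.0897% and 0.0224% of all genes. At an unadjusted edgeR p under 0.05, 5 members were higher and 10 lower. These are 13.5% and 27.0% of the members, beside a background of 10.2% and 8.94% of all genes. The 5 that were higher were the latent binding protein Ltbp1 and the receptors Tgfbr3, Acvr2a, Bmpr1a and Bmpr2. The 10 that were lower were Tgfb2, Ltbp3, Ltbp4, Smad6, Smad7, Tgif1, Pmepa1, Bambi, Fstl3 and Id3, of which 6 are inhibitors or brakes. The 3 libraries of each genotype did not overlap for 5 members that were higher and 12 that were lower, where 11.8% and 10.5% of all genes did not overlap. The median log2 fold change was -0.16 over the members and -0.0045 over all genes, with 13 members above 0 and 24 below.

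**Figure D1:**
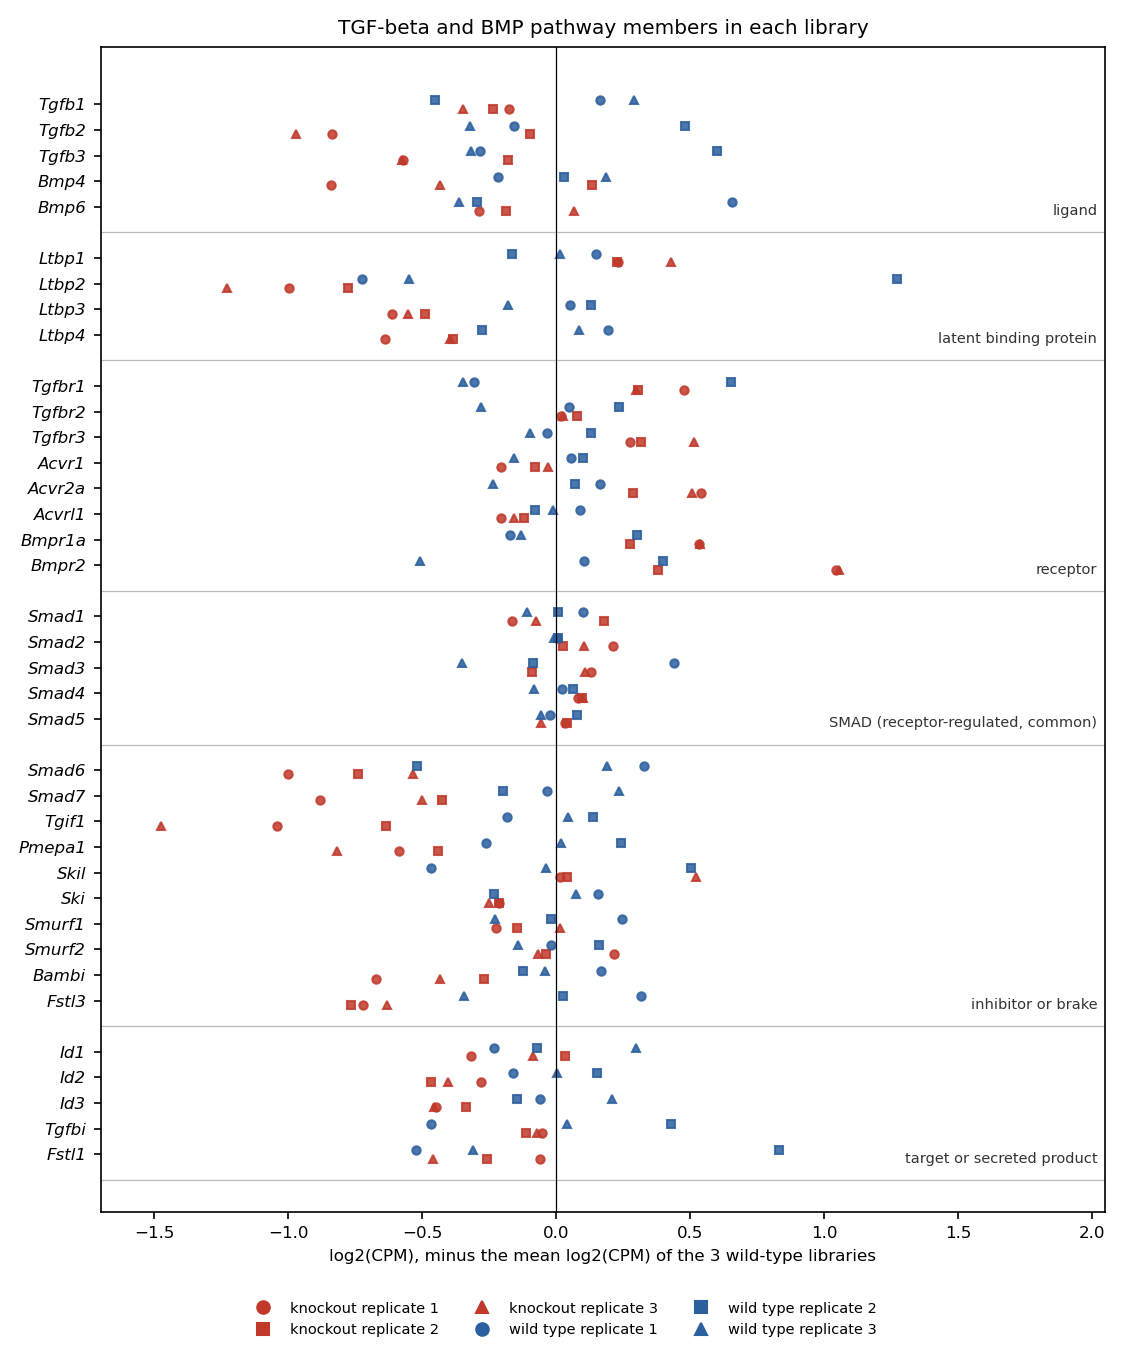
Level of each of the 37 members in each of the 6 libraries, as log2(CPM) minus the mean of the 3 wild-type libraries, grouped by role. Red symbols are knockout and blue symbols wild type, with the replicate number shown by shape. Red symbols lie left of blue ones for Ltbp3, Smad7, Tgif1 and Pmepa1, and wild-type replicate 2 lies far to the right for Ltbp2 and Fstl1.

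The calls turned on the tool and on 1 library. DESeq2 passed Bmpr2 as higher and Ltbp3, Ltbp4, Smad6, Smad7, Tgif1 and Pmepa1 as lower after adjustment (1 and 6 members, background 2.63% and 1.99%), while limma-voom passed 0 in each direction (5 and 12 at an unadjusted p under 0.05). No share of all genes is given for limma-voom. With wild-type replicate 2 left out, edgeR passed 4 members as higher (Tgfbr1, Tgfbr3, Bmpr1a and Bmpr2) and 8 as lower (Tgfb1, Ltbp3, Ltbp4, Smad6, Smad7, Tgif1, Pmepa1 and Id3), beside a background that itself stood at 7.25% and 6.39%. Their adjusted p then ran from 0.00492 (Smad6) to 0.0407 (Pmepa1), and over the settings tried from 0.00492 (Smad6) to 0.946 (Tgfbr1). Leaving out any other single library passed 0 members, and the count of 5 that were higher at an unadjusted p under 0.05 was 3 when knockout replicate 3 and 1 when wild-type replicate 3 was left out. The shares of all genes at that p are not given for these fits. With offsets for GC content and transcript length, 3 members were higher at an unadjusted edgeR p under 0.05 (Ltbp1, Tgfbr3 and Bmpr2) and 11 lower, beside 6.87% and 7.37% of all genes. With those offsets and without wild-type replicate 2, 0 passed as higher and 1, Bambi, as lower (background 1.17% and 1.55%). Ltbp3, Smad6, Smad7, Tgif1 and Pmepa1, 5 of the 37, kept an unadjusted p under 0.05 in the same direction in every alternative that tested them. They were taken from the members already at that p in the main fit, and the alternatives reuse the same libraries. The share of all genes that kept such a p is not given, so this count has no background.

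Inhibitors and brakes were mostly lower in the knockout: 8 of 10 were below 0, 6 at an unadjusted p under 0.05. Their median log2 fold change was -0.53. Over all genes tested, 6766 of 13384 were below 0 and 8.94% were lower at that p. Smad6, the inhibitory SMAD that acts mainly on BMP receptors (chr9:63953076-64022059, GRCm38), stood at 10.1, 12.2 and 14.0 CPM in the knockout libraries and at 25.5, 14.2 and 23.2 CPM in wild type. Every knockout library was below every wild-type library, by a narrow gap between knockout replicate 3 and wild-type replicate 2. The means were 12.1 ± 1.95 and 20.9 ± 5.99 CPM (SD, n = 3 each), a log2 fold change of -0.79 (SE 0.21, adjusted p = 0.102 in edgeR). It was -0.43 with the GC and length offsets and -1.0003 without wild-type replicate 2. Smad7, which recruits ubiquitin ligases to the activated TGF-beta receptor, was at 17.8, 24.4 and 23.2 CPM in knockout and at 32.1, 28.6 and 38.6 CPM in wild type. The groups did not overlap, and the log2 fold change was -0.60 (SE 0.16, adjusted p = 0.102 in edgeR).

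Tgif1, a homeodomain corepressor of Smad2 and Smad3 (chr17:70844205-70853546), was measured at 2.86, 3.79 and 2.12 CPM in knockout against 5.19, 6.47 and 6.06 CPM in wild type. In the edgeR fit its wild-type level was 2.019 times that in knockout, a log2 fold change of -1.01 (SE 0.25, adjusted p = 0.0834 in edgeR). Pmepa1, a membrane protein that sequesters receptor-regulated SMADs (chr2:173224458-173276533), was at 36.5, 40.2 and 31.0 CPM in knockout and 45.7, 64.7 and 55.4 CPM in wild type. Its groups were separate and its log2 fold change was -0.62 (SE 0.15, adjusted p = 0.0849 in edgeR). Tgif1 and Pmepa1 were each highest in wild-type replicate 2, and without that library their log2 fold changes were -0.94 and -0.48.

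Bambi, a pseudoreceptor that lacks a kinase domain, stood at 11.1, 14.7 and 13.1 CPM in knockout and 19.9, 16.3 and 17.3 CPM in wild type. Its log2 fold change was -0.45 (SE 0.16, adjusted p = 0.162 in edgeR), and with the GC and length offsets it was -0.67. Fstl3, a secreted follistatin-like protein that binds activins, was measured at 2.45, 2.37 and 2.60 CPM in knockout and 5.02, 4.11 and 3.18 CPM in wild type. The knockout libraries lay close together and below all wild-type ones, with a log2 fold change of -0.73 (SE 0.25, adjusted p = 0.161 in edgeR). Of the annotated exonic bases of Fstl3, 47.3% also belong to Prss57 on the opposite strand, so without known strand use its reads are uncertain. No other member shared more than 12.4% of its exonic bases (Tgfb3), and 13 of 37 shared any. For the other brakes, values were closer to 0: the corepressors Ski (log2 fold change -0.23, SE 0.13) and Skil (0.16, SE 0.23), and the ubiquitin ligases Smurf1 (-0.13, SE 0.14) and Smurf2 (0.04, SE 0.13), had adjusted p in edgeR between 0.335 and 0.898. Skil and Smurf2 turned below 0 with the GC and length offsets.

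**Figure D2:**
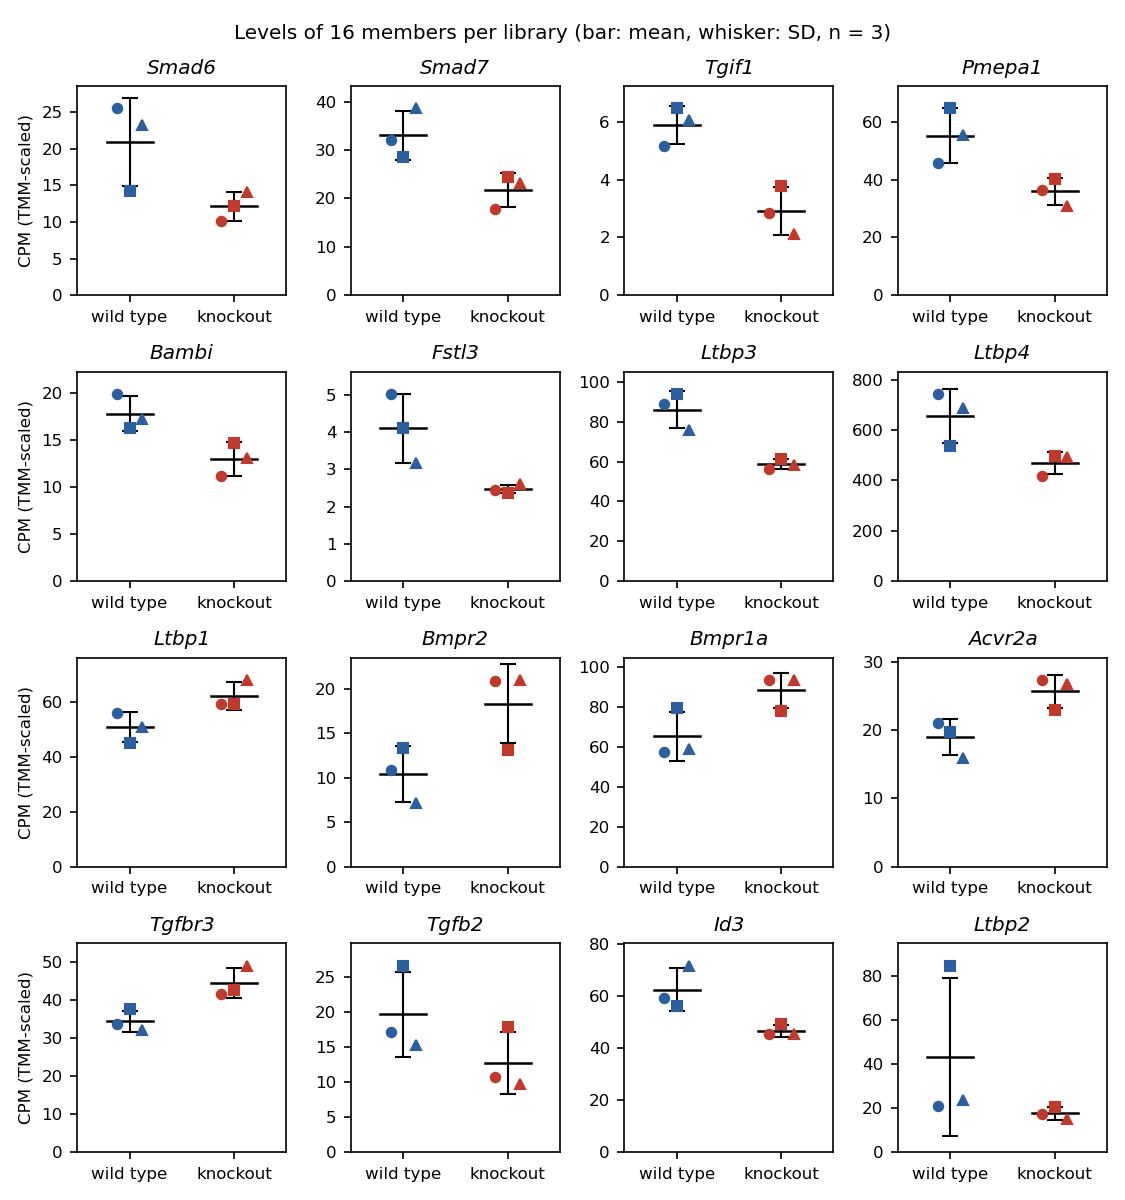
TMM-scaled CPM of 16 members in each library, with circles, squares and triangles for replicates 1, 2 and 3, bars for the group mean and whiskers for the SD (n = 3). Knockout and wild type are separate for Smad6, Smad7, Tgif1 and Pmepa1, overlap for Bmpr2, Bmpr1a and Tgfb2, and for Ltbp2 the wild-type mean is carried by wild-type replicate 2 at 84.6 CPM.

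The latent binding proteins went in both directions. Ltbp3, a tether for latent TGF-beta (chr19:5740904-5758532), had the smallest adjusted p of the 37 members. It was at 56.2, 61.2 and 58.5 CPM in knockout and 89.0, 93.9 and 75.7 CPM in wild type, so the highest knockout library was below the lowest wild-type library. The means of 58.6 ± 2.49 and 86.2 ± 9.41 CPM (SD, n = 3 each) gave a log2 fold change of -0.56 (SE 0.13, adjusted p = 0.0726 in edgeR). Ltbp4, the family member most tied to elastic fibres (chr7:27305136-27337692), was at 417, 497 and 494 CPM in knockout and 743, 536 and 689 CPM in wild type. It was lower in every knockout library, with a log2 fold change of -0.48 (SE 0.15, adjusted p = 0.121 in edgeR), which shrank to -0.21 with the GC and length offsets.

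Ltbp1, the best-studied carrier of latent TGF-beta (chr17:75005568-75392512), was the one latent binding protein above 0. It measured 59.3, 59.2 and 68.0 CPM in knockout and 56.1, 45.2 and 51.1 CPM in wild type, without overlap, for a log2 fold change of 0.29 (SE 0.13, adjusted p = 0.249 in edgeR). Ltbp2, which does not bind latent TGF-beta and is a marker of activated fibroblasts, was at 17.6, 20.4 and 14.9 CPM in knockout and 21.2, 84.6 and 24.0 CPM in wild type. Its log2 fold change of -1.29 (SE 0.63, adjusted p = 0.343 in edgeR) rested on wild-type replicate 2 and was -0.35 without it.

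The 4 genes were also set against each other as shares of the family's summed CPM per kb, a comparison chosen after their values were seen. Ltbp1 took 9.002%, 7.72% and 8.92% of the family in the knockout libraries and 5.10%, 5.01% and 5.02% in wild type. All knockout shares lay above all wild-type shares, 8.55% ± 0.718 against 5.04% ± 0.0470 (SD, n = 3 each). The two-sided exact permutation p was 0.1, the smallest that 3 against 3 can give, and 0.7 after adjustment over the 7 shares tested in this and the ligand family. Ltbp4 held most of the family in both genotypes, 79.7% ± 1.07 in knockout and 80.4% ± 5.88 in wild type. Ltbp1 transcripts are 52.7% GC and those of Ltbp4 62.2%, and the part of GC content in these shares was not tested.

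**Figure D3:**
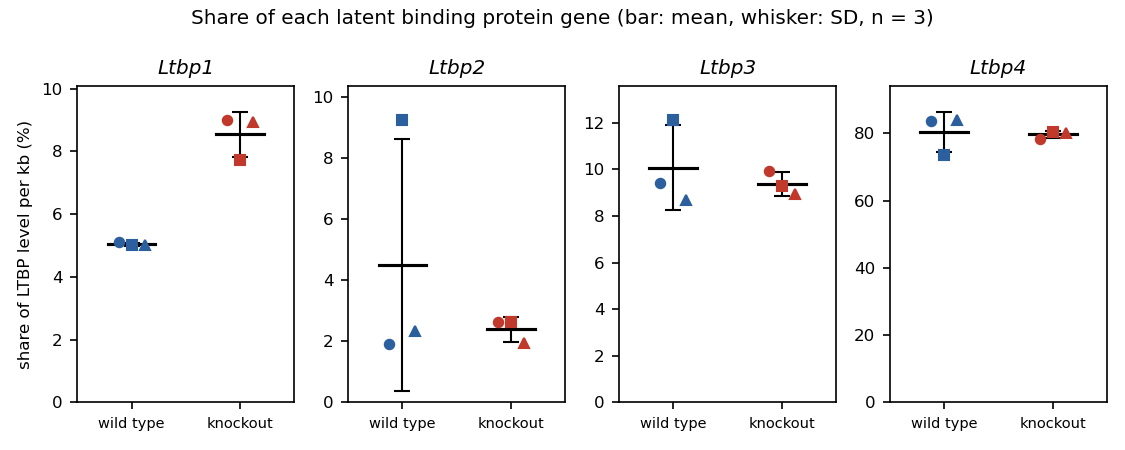
Share of each latent binding protein gene in the family's summed CPM per kb, in percent, for each library (points), with group mean (bar) and SD (whisker, n = 3). Ltbp1 is at 7.72% to 9.002% in knockout and 5.01% to 5.10% in wild type, while Ltbp2 reaches 9.25% in wild-type replicate 2.

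Receptors leaned the other way from the brakes: 6 of 8 were above 0, 4 of them at an unadjusted p under 0.05. Their median log2 fold change was 0.33, and 0.08 with the GC and length offsets. Over all genes tested, 6618 of 13384 were above 0 and 10.2% were higher at that p. Bmpr2, the type II BMP receptor (chr1:59763400-59879014), stood at 20.8, 13.2 and 20.99 CPM in knockout and 10.9, 13.3 and 7.11 CPM in wild type. Knockout replicate 2 lay within the wild-type range, and the log2 fold change was 0.81 (SE 0.24, adjusted p = 0.121 in edgeR). Bmpr1a, a type I BMP receptor, was at 93.3, 78.1 and 93.6 CPM in knockout and 57.3, 79.5 and 58.9 CPM in wild type. Here too replicate 2 of each genotype overlapped, and the log2 fold change was 0.44 (SE 0.15, adjusted p = 0.156 in edgeR).

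Acvr2a, a type II receptor for activins and BMPs, was at 27.3, 22.9 and 26.7 CPM in knockout and 21.04, 19.7 and 15.96 CPM in wild type. The groups were separate, with a log2 fold change of 0.44 (SE 0.15, adjusted p = 0.156 in edgeR). Tgfbr3, the co-receptor betaglycan, measured 41.6, 42.7 and 49.0 CPM in knockout and 33.6, 37.6 and 32.1 CPM in wild type. It was also separate, with a log2 fold change of 0.37 (SE 0.13, adjusted p = 0.162 in edgeR). With the GC and length offsets, the values of Bmpr2, Bmpr1a, Acvr2a and Tgfbr3 were 0.40, 0.16, 0.13 and 0.22.

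The signalling TGF-beta receptor pair gave no such separation. Tgfbr1, the type I kinase, was at 34.3, 30.5 and 30.3 CPM in knockout and 19.9, 38.8 and 19.4 CPM in wild type, a log2 fold change of 0.29 (SE 0.24, adjusted p = 0.538 in edgeR). Wild-type replicate 2 held its highest value, and without it the difference was 0.70. Tgfbr2, the type II kinase that binds ligand first, was at 73.998, 77.1 and 74.5 CPM in knockout and 75.5, 85.9 and 60.2 CPM in wild type, a log2 fold change of 0.03 (SE 0.14, adjusted p = 0.936 in edgeR). Acvrl1, the endothelial type I receptor, and Acvr1, a type I receptor for BMPs, were at -0.16 (SE 0.12) and -0.11 (SE 0.14), with adjusted p in edgeR of 0.474 and 0.710. The value of Acvrl1 was 0.01 with the offsets.

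All 5 ligands were below 0, with a median log2 fold change of -0.34, but 1 of them, Tgfb2, was under an unadjusted p of 0.05. Of all genes, 8.94% were lower at that p. Tgfb1, the ligand most linked to fibrosis, was at 28.2, 27.1 and 25.0 CPM in knockout and 35.7, 23.3 and 39.0 CPM in wild type. Wild-type replicate 2 was its lowest library, and the log2 fold change was -0.29 (SE 0.18, adjusted p = 0.394 in edgeR) with that library and -0.47 without it. Tgfb2 was at 10.7, 17.9 and 9.74 CPM in knockout and 17.1, 26.6 and 15.3 CPM in wild type, a log2 fold change of -0.62 (SE 0.26, adjusted p = 0.237 in edgeR). Replicate 2 was the high library in both genotypes, the groups overlapped, and leaving out that library gave -0.33 in the case of wild type and -0.95 in the case of knockout. Tgfb3 was at 22.5, 29.5 and 22.4 CPM in knockout and 27.5, 50.7 and 26.9 CPM in wild type, a log2 fold change of -0.50 (SE 0.24, adjusted p = 0.284 in edgeR) that became -0.12 without wild-type replicate 2.

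Wild-type replicate 2 thus held the lowest Tgfb1 and the highest Tgfb2 and Tgfb3 of the 6 libraries. Per kb, Tgfb1 made up 30.9% of the summed TGF-beta ligands in that library and 46.3% to 58.1% in the other 5. Between genotypes the Tgfb1 share was 51.7% ± 4.87 in knockout and 47.9% ± 14.8 in wild type (SD, n = 3 each, two-sided exact permutation p = 0.9). Of the BMP ligands, Bmp4 was at -0.34 (SE 0.26) and Bmp6 at -0.21 (SE 0.25), with adjusted p in edgeR of 0.491 and 0.684. Bmp6 ranged from 24.7 to 50.1 CPM within wild type, and without wild-type replicate 1, its highest library, its log2 fold change was 0.20.

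The signal-carrying SMADs had a median log2 fold change of 0.02, and their adjusted p in edgeR ran from 0.645 to 0.985. Smad2, which carries the TGF-beta signal, was at 27.4, 24.1 and 25.4 CPM in knockout and 23.7, 23.8 and 23.5 CPM in wild type (log2 fold change 0.12, SE 0.13). Smad3, its partner in fibroblast activation, was at 19.0, 16.3 and 18.7 CPM in knockout and 23.5, 16.3 and 13.6 CPM in wild type (log2 fold change 0.02, SE 0.19). The 3 wild-type libraries were nearly the same for Smad2 and spread widely for Smad3. Smad4, the shared partner, was at 43.2, 43.7 and 43.9 CPM in knockout and 41.5, 42.7 and 38.6 CPM in wild type (log2 fold change 0.09, SE 0.12). Smad1 and Smad5, of the BMP branch, were at -0.01 (SE 0.15) and 0.01 (SE 0.12). With the GC and length offsets Smad2 was at -0.17 and Smad5 at -0.24, the latter at an unadjusted edgeR p of 0.0320.

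The ID proteins, dimerization partners that block basic helix-loop-helix factors, are classical BMP targets. Id3 (chr4:136143497-136145755) was at 45.4, 49.1 and 45.2 CPM in knockout and 59.3, 55.9 and 71.5 CPM in wild type. The groups were separate, with means of 46.5 ± 2.18 and 62.3 ± 8.20 CPM (SD, n = 3 each) and a log2 fold change of -0.42 (SE 0.13, adjusted p = 0.129 in edgeR), or -0.21 with the GC and length offsets. Id2 ranged from 6.45 to 7.35 CPM in knockout and from 7.99 to 9.92 CPM in wild type, also without overlap (log2 fold change -0.39, SE 0.18, adjusted p = 0.262 in edgeR). Id1 was at -0.13 (SE 0.16, adjusted p = 0.663 in edgeR), and at 0.06 with the offsets. Tgfbi, a matrix protein named for its induction by TGF-beta, was at -0.12 (SE 0.19). The secreted glycoprotein Fstl1 was at -0.38 (SE 0.37), with 403 CPM in wild-type replicate 2 while the other 5 libraries ranged from 158 to 217 CPM, and at 0.17 without that library.

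**Figure D4:**
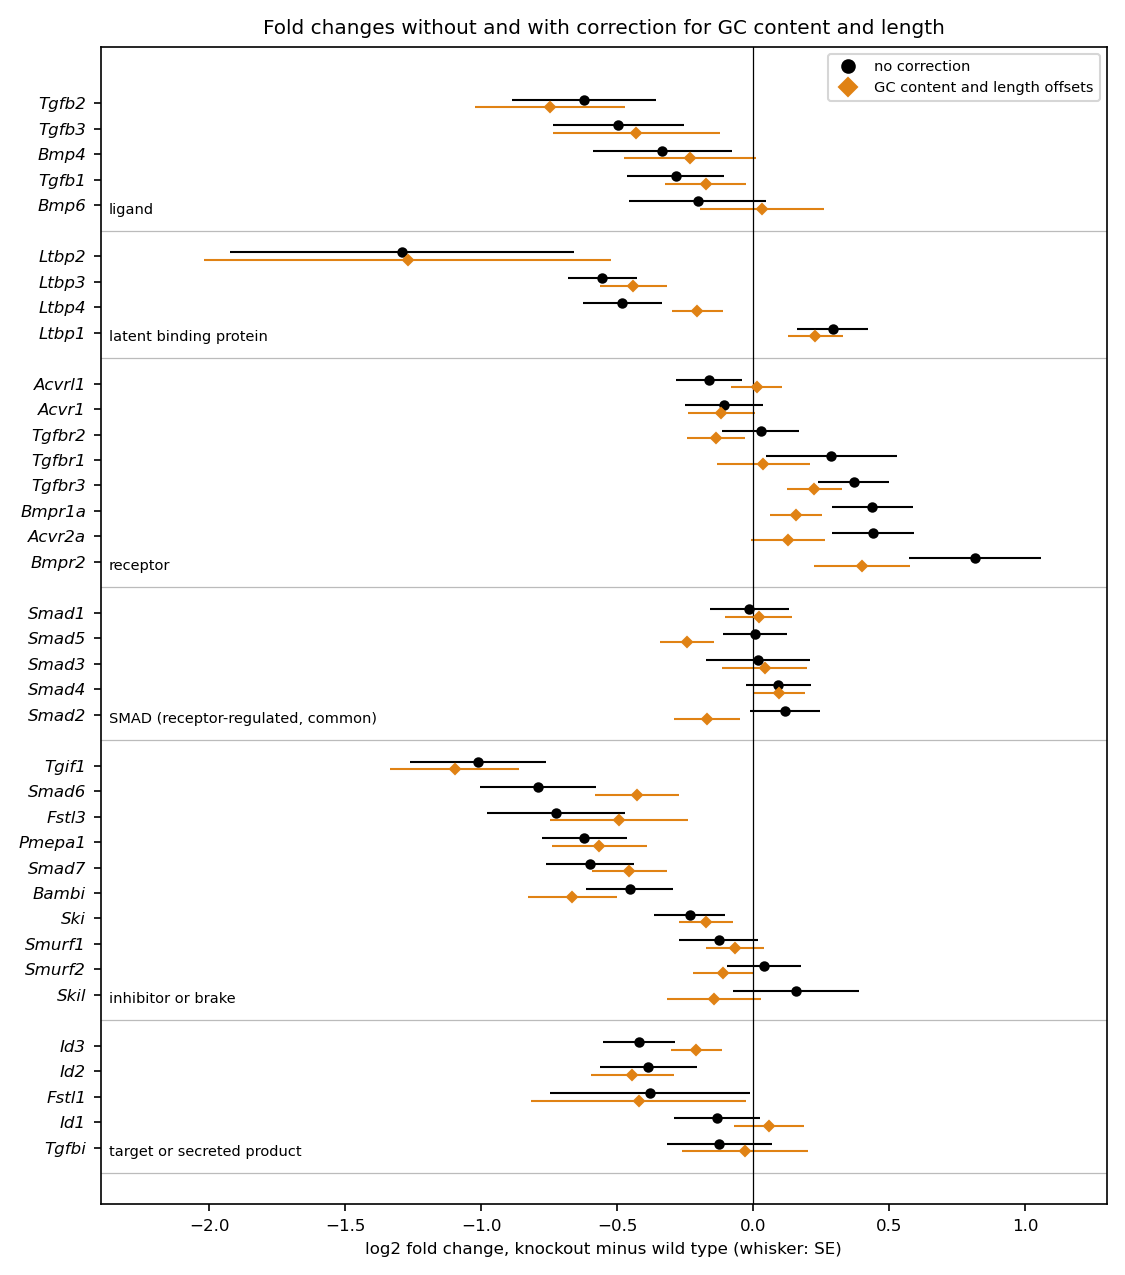
Log2 fold change of each member, knockout minus wild type, with SE, without correction (black circles) and with offsets for GC content and transcript length (orange diamonds). With the offsets the receptors Bmpr2, Acvr2a and Bmpr1a move toward 0, Smad2 and Smad5 pass below 0, and Tgif1 and Bambi lie further below 0.

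Levels between genes were compared per kb of the longest annotated transcript, in wild type. Ltbp4 was the most abundant member at 122 CPM per kb, and Fstl1 (65.4), Id3 (48.7) and Id1 (36.7) came next. The place of Fstl1 rested on wild-type replicate 2: in wild-type replicates 1 and 3 it was at 41.6 and 48.3 CPM per kb, below Id3 at 46.4 and 55.97. The least abundant were Bmpr2 at 0.809, Tgif1 at 1.88 and Fstl3 at 2.099, and the latter pair did not differ beyond their spread. The last place of Bmpr2 depends on its longest transcript of 12899 bases. Before division by length its wild-type mean was 10.4 CPM, above those of Tgif1 (5.91 CPM) and Fstl3 (4.10 CPM). Among the receptors the order ran from Acvrl1 (13.5) and Bmpr1a (11.0) through Tgfbr2 (9.13), Tgfbr3 (5.66), Acvr1 (5.41), Tgfbr1 (4.52) and Acvr2a (3.33) to Bmpr2. The spread of Tgfbr1 in wild type (26.0 ± 11.0 CPM, SD, n = 3) exceeds the steps to its neighbours Acvr1 and Acvr2a in this order. Other ranks also changed between libraries. Bmpr1a lay above Acvrl1 in wild-type replicate 2 (13.35 and 12.79), and Acvr1 above Tgfbr3 in wild-type replicate 1 (5.61 and 5.52). Ligand levels were 12.7 for Tgfb1, 10.4 for Tgfb3, 9.35 for Bmp6, 3.85 for Tgfb2 and 2.85 for Bmp4, and those of Tgfb1, Tgfb3 and Bmp6 do not differ beyond their spread. Bmp4 lay above Tgfb2 in wild-type replicate 3 (3.22 and 2.98).

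GC content moved with the members' differences. All 5 members in the lowest of the 5 GC bins were above 0 (Tgfbr1, Acvr2a, Bmpr1a, Bmpr2 and Skil), and all 9 in the highest were below 0, among them Ltbp3, Ltbp4, Smad6, Smad7, Fstl3 and Id3. In the second bin, where the median of all genes was 0.11, the 7 members had a median of -0.39, and Tgif1 (45.0% GC), Bambi (44.0%), Tgfb2 (46.9%) and Id2 (45.1%) were below 0. The offsets brought the members' median to -0.17, the brakes' to -0.44, the latent binding proteins' to -0.32 and the ligands' to -0.23. With the offsets all 10 brakes were below 0, since Skil and Smurf2 moved there from above 0. At an unadjusted edgeR p under 0.05, 5 brakes were then lower, against 6 without the offsets. Of all genes, 7.37% and 8.94% were lower at that p in these fits.

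**Figure D5:**
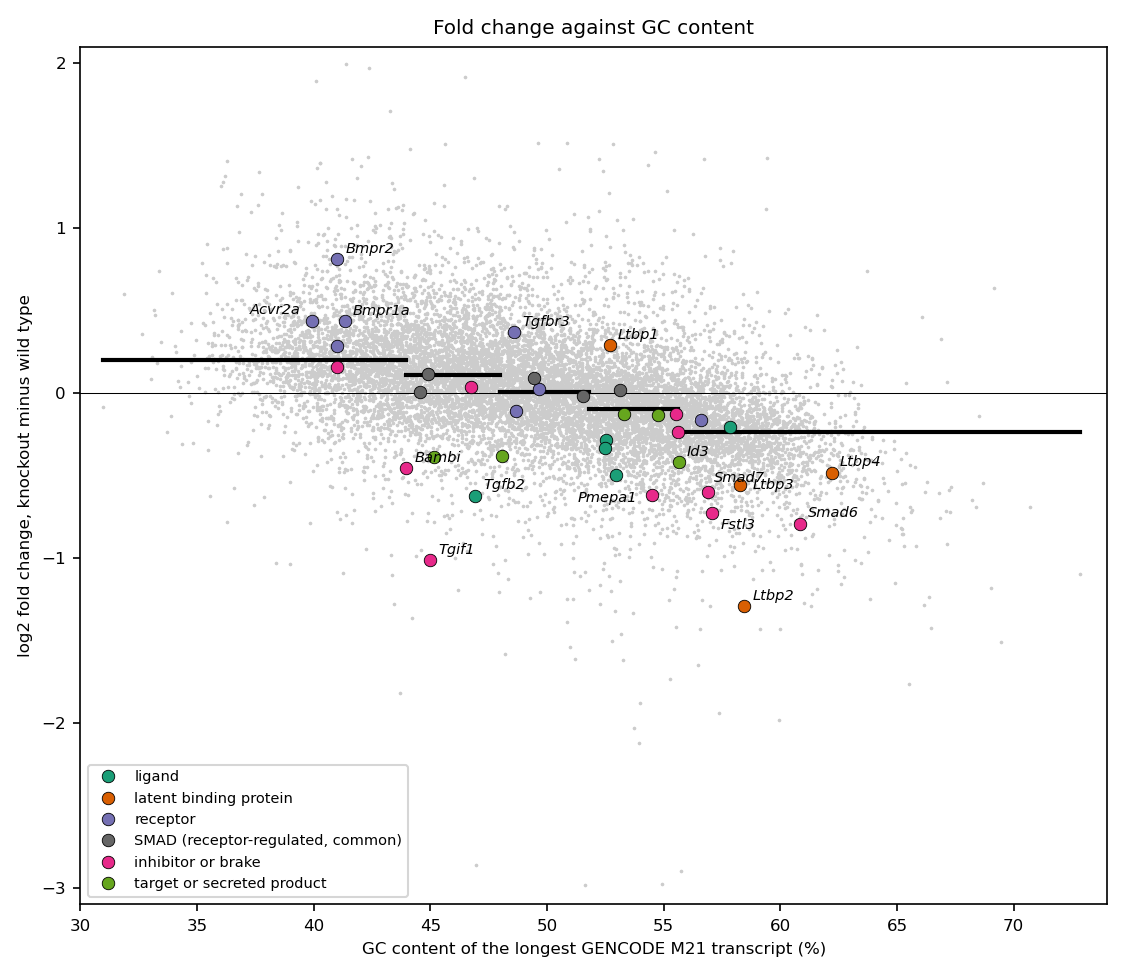
Log2 fold change, knockout minus wild type, against the GC content of the longest transcript. Grey points are the 12612 genes with a matched transcript, black bars the medians of 5 equal bins, and coloured points the members by role. The bar medians go from 0.20 at low GC to -0.24 at high GC, and Tgif1, Bambi and Tgfb2 lie well below the bars at their own GC content.

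Summed marker levels of several cell types also lay apart between the genotypes, but no marker of any list passed edgeR's test after adjustment. The sums themselves were not tested. In bulk tissue fewer cells of a type and less RNA per cell cannot be told apart. Fibroblast markers summed to 2167 to 2286 CPM in knockout and 2587 to 3644 CPM in wild type, with all 10 below 0 (median -0.41 on the log2 scale, or -0.098 when wild-type replicate 2 was left out). Without that library Col1a2, Pdgfra, Dcn, Lum and Dpt were above 0, and Col1a1, Tcf21, Gsn, Mfap5 and Pi16 stayed below. The largest part of each sum was Gsn, at 972 to 1005 CPM in knockout and 1313 to 1377 CPM in wild type. Activated fibroblast markers, which include Ltbp2, summed to 264.7 to 382 CPM and 399 to 1274 CPM, with 9 of 10 below 0 and a median of -1.01. The highest sum was that of wild-type replicate 2, the other wild-type libraries were at 399 and 448 CPM, and without it the median was -0.53, with Postn, Cthrc1, Fap and Ddah1 above 0. Smooth muscle markers summed to 2246 to 2877 CPM and 2939 to 3609 CPM, with 7 of 7 below 0. Most of each sum was Des, at 1964 to 2526 CPM in knockout and 2592 to 3242 CPM in wild type. Acta2 was also separate, while Myh11, Tagln, Cnn1, Mylk and Smtn overlapped between the genotypes. Macrophage markers summed to 406 to 416 CPM in knockout and 319.8 to 399 CPM in wild type, with 6 of 8 above 0. Endothelial markers overlapped, at 1441 to 1854 and 1623 to 1935 CPM (8 of 10 below 0), as did those of pericytes, at 635 to 663 and 638 to 758 CPM (5 of 7 below 0). Atrial muscle markers were at 510.0 to 585 CPM in knockout and 732 to 3100.2 CPM in wild type (6 of 6 below 0). Most of each sum was Nppa, at 449 to 533 CPM in knockout and at 2282, 2058 and 623 CPM in wild type. In wild-type replicate 2, Sln was within the knockout range and Stard10, at 12.6 CPM, below every knockout library. Wild-type replicate 1 stood apart in this list, with Myl7 at 249.6, Myl4 at 391.7 and Sln at 112 CPM, while replicates 2 and 3 held 19.2 and 27.6, 22.7 and 36.2, and 6.63 and 11.8 CPM of these. That library was also the highest for 9 members, Bmp6, Ltbp4, Acvrl1, Smad3, Smad6, Ski, Smurf1, Bambi and Fstl3. Without it the log2 fold changes of Smad6, Ltbp4, Bambi and Fstl3 were -0.63, -0.38, -0.37 and -0.56. The remaining lists were red cell markers at 224 to 298 and 251 to 664 CPM (4 of 4 measured below 0) and mesothelial markers at 11.3 to 16.2 and 17.7 to 41.5 CPM (2 of 3 measured below 0). Of 7 lymphocyte markers 2 were measured, at 14.5 to 18.4 and 9.43 to 13.1 CPM, and of 5 adipocyte markers 2, at 2.60 to 5.08 and 3.38 to 6.18 CPM. The part of these shifts in the members' values was not tested.

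Of 97 further genes of the pathway, 71 were in the table, and by edgeR 0 passed as higher and 0 as lower after adjustment. At an unadjusted p under 0.05, 10 were higher and 11 lower (14.1% and 15.5% of those measured, against the background above), and the median log2 fold change was -0.07. Without wild-type replicate 2, edgeR passed 6 as higher and 5 as lower after adjustment, of 71, close to the 7.25% and 6.39% of all genes in that setting. Leaving out 1 library turned the count of 10 into 5 (knockout replicate 2), 2 (knockout replicate 3), 4 (wild-type replicate 1), 16 (wild-type replicate 2) or 1 (wild-type replicate 3). The count over all 13384 genes also rose without wild-type replicate 2, from 1369 to 2181. For the other libraries left out, the count over all genes is not given. With all 6 libraries, 6766 of the 13384 genes were below 0 and 8.94% were lower at an unadjusted p under 0.05. Genes of latency and activation were mostly lower, with 10 of 13 below 0 and 5 under that p. Of these Emilin1, a matrix protein that limits processing of the TGF-beta precursor, was at 40.2 ± 2.08 CPM in knockout and 55.6 ± 1.68 CPM in wild type (SD, n = 3 each), without overlap. Its log2 fold change was -0.47 (SE 0.12, adjusted p = 0.0900 in edgeR) and -0.18 with the GC and length offsets. With the offsets and without wild-type replicate 2 it was -0.0047. Itgb5, an integrin subunit that helps release latent TGF-beta, was at 133 and 177 CPM (log2 fold change -0.41, SE 0.14), and Lrrc32, a cell-surface tether of latent TGF-beta, at 13.4 and 19.4 CPM (-0.53, SE 0.21). With the offsets these were -0.23 and -0.35, and Lrrc32 was also at -0.35 when replicate 1 of either genotype was left out.

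Ligands outside the 37 went both ways. Inhbb, the activin beta B subunit, was at 3.00 ± 0.870 CPM in knockout and 6.19 ± 2.21 CPM in wild type (log2 fold change -1.04, SE 0.30, adjusted p = 0.115 in edgeR), and the stress-induced Gdf15 at 2.019 and 4.97 CPM (-1.29, SE 0.41). The wild-type libraries held 3.46, 8.41 and 3.05 CPM of Gdf15. Leaving out the highest, replicate 2, gave -0.67, and -0.18 with the offsets as well. Gdf10 was higher in knockout, at 5.64 against 3.38 CPM (0.74, SE 0.25), as was Gdf11, at 2.13 against 1.23 CPM (0.79, SE 0.30), and both kept about this size with the offsets (0.70 and 0.83). The target Ccn2, a matricellular protein, stood at 111 ± 28.7 CPM in knockout and 219 ± 73.2 CPM in wild type with overlap (-0.98, SE 0.27, adjusted p = 0.124 in edgeR), and Snai2 at 2.11 and 3.45 CPM (-0.71, SE 0.26). Tgfb1i1, a focal adhesion adaptor, was at 16.4 and 23.3 CPM (-0.51, SE 0.14), and Eng, the endothelial co-receptor endoglin, at 142 and 204 CPM (-0.53, SE 0.20). Eng was at -0.30 with the offsets and -0.32 without wild-type replicate 1. The ubiquitin ligase Wwp1 was at 82.8 and 60.4 CPM (0.46, SE 0.15), and at 0.13 with the offsets. SMADs and cofactors had 9 of 10 measured genes above 0, 5 under an unadjusted p of 0.05, and a median of 0.22 that was 0.07 with the offsets. Over all genes tested, 6618 of 13384 were above 0 and 10.2% were higher at that p.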

How the data were processed

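Raw whole-number counts per gene were deposited by the authors as 1 table for the 6 libraries. Per the submitters' processing notes, the mm10 build and DESeq2 were used. What was used to align and count, with which annotation and strand setting, is not given in the sources used here. A robust quasi-likelihood test of edgeR 4.0.16 (in R 4.3.3) was applied to the counts with TMM size factors, on all 13384 genes, 3 knockout against 3 wild-type libraries. The tool's filter on low counts removed 0% of genes. Two-sided p-values received a Benjamini-Hochberg adjustment across the whole table and were read at 0.05. Levels are TMM-scaled CPM. The lowest count in the table was 12, and a gene absent from one group may therefore be missing from it. GC content and length came from the longest GENCODE transcript on GRCm38 and were known for 94.2% of genes and 37 of 37 members, and offsets used splines with 4 degrees of freedom. DESeq2 1.42.0 and limma 3.58.1 were among 16 alternative settings, and 1 more was added after seeing the data. The fit was tested on simulated data. Libraries of a group differed by more than sampling noise. Every member was named, with values in each library for those at an unadjusted p under 0.05 and for 9 fixed ones, and the 12 other pathway genes with the smallest p. The members and lists were chosen with earlier results of these data known.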

Additional observations from a re-analysis of the deposited data

How the results depend on the processing

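The lowest count of a member in any library was 48, so no member was near the limit of detection at this depth. The 37 members had 627 values over 17 alternatives: 555 kept direction and side of the threshold, 21 newly passed it and 51, in 13 genes, changed sign. The 12 other named genes had 199, of which 184 kept both. Same-numbered libraries correlated at -0.12, -0.075 and -0.147 after removing group means. No pairing by replicate number was seen in these values. With 3 libraries per group they cannot exclude one. With the replicate block, 0 members passed as higher and 1 (Tgif1) as lower, and 3 other pathway genes passed as lower. The share of all genes that passed with this block is not given. At an unadjusted p under 0.05 with the block, 6 other pathway genes were higher, and with GC and length offsets added 1 member and 6 other genes. Counts or shares of all genes at an unadjusted p are given only for edgeR on all libraries, with GC and length offsets, and without wild-type replicate 2. The cause of the changes below was not tested.

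DESeq2 passed 1 member as higher, 6 as lower and 5 other pathway genes as lower. A mean of at least 5 CPM left 6 other genes lower at an unadjusted p under 0.05, as fewer genes were tested, and gave the brakes a median of -0.34. With GC and length offsets 3 members and 6 other genes were higher at an unadjusted p under 0.05, and medians were -0.32 for latent binding proteins, 0.082 for receptors and -0.21 for targets (-0.32, 0.10 and -0.21 with the replicate block as well). Offsets without wild-type replicate 2, added after seeing the data, gave 3 members higher at an unadjusted p, 1 member lower after adjustment, 1 other gene higher and 2 lower, and medians of -0.068 for all members, -0.20 for latent binding proteins, 0.13 for receptors, -0.39 for brakes and 0.059 for targets.

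Leaving out 1 library at a time, passing members ranged from 0 to 4 (higher) and 0 to 8 (lower), and other genes from 0 to 6 and 0 to 5. At an unadjusted p under 0.05 members ranged from 1 to 6 and 8 to 12, and other genes from 1 to 16 and 8 to 13. Without wild-type replicate 2, 2181 of all 13384 genes were higher and 2047 lower at that p, against 1369 and 1197 with all libraries. Medians ranged from -0.20 to -0.13 (all members), -0.64 to -0.31 (ligands), -0.56 to -0.42 (latent binding proteins), 0.21 to 0.46 (receptors), -0.024 to 0.10 (SMADs), -0.62 to -0.41 (brakes) and -0.45 to -0.17 (targets).

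Sign changes of log2 fold changes came mostly with the offsets. Values with offsets, with offsets and the replicate block, and with offsets without wild-type replicate 2 were 0.012, 0.013 and 0.053 for Acvrl1, 0.056, 0.060 and 0.059 for Id1, -0.14, -0.13 and -0.00251 for Skil, 0.019, 0.014 and 0.049 for Smad1, -0.17, -0.17 and -0.25 for Smad2, -0.24, -0.25 and -0.28 for Smad5, -0.11, -0.12 and -0.073 for Smurf2, and -0.14, -0.13 and -0.043 for Tgfbr2. Bmp6 was at 0.032 and 0.076 with the first pair, Tgfbi at 0.026 and 0.26 with the last pair, and Fstl1 at 0.098 and Itgb5 at 0.000156 with the last. Upper quartile size factors put Smad5 at -0.00852. Leaving out 1 library changed the sign of Bmp6 (-0.38 to 0.20), Fstl1 (-0.62 to 0.17), Id1 (-0.24 to 0.030), Skil (-0.045 to 0.45), Smad1 (-0.12 to 0.056), Smad3 (-0.15 to 0.27), Smad5 (-0.024 to 0.053), Smurf1 (-0.24 to 0.00343), Smurf2 (-0.057 to 0.13), Tgfbi (-0.32 to 0.12) and Tgfbr2 (-0.10 to 0.16).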
